A study of Dorcoceras hygrometricum with 9 samples.

Results

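Transcripts of 2 heat stress transcription factor (Hsf) genes were followed through leaf drying in the resurrection plant Boea hygrometrica (Dorcoceras hygrometricum in the sample records), which revives after its leaves have dried out. The genes are Bhs3828_002V1.1, whose best database match is a soybean "heat stress transcription factor A-6b-like" protein (called A-6b-like here), and Bhs826_024V1.1, whose best match is a B. hygrometrica "heat shock factor". They were picked by gene ID, with their values in these libraries already known, from 24182 genes with a read and from 22 genes described as Hsfs. For that reason their levels and differences are given as descriptions without a test. RNA from leaf tissue of potted plants was sequenced in 3 water states with 3 libraries each: hydrated (titled HD), dried to 70% of the relative water content (RWC) of a fully hydrated leaf, and dried to 10% RWC. All groups are the same species, with no transgene or other treatment named, and the series' design text calls the libraries of a state biological replicates. Plant age, time to reach each state and the number of plants per library are not given in the sources used here, so the spread between libraries may be partly technical.

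Hsfs are DNA-binding proteins that recognise heat shock elements, short repeats in the promoters of chaperone genes. In plants they fall into class A, mostly activators, class B, many of which repress, and the less studied class C. In unstressed cells, class A factors are held inactive by the chaperones HSP70 and HSP90, whose own genes are Hsf targets together with those of small heat shock proteins, the HSP100/ClpB disaggregase and, in Arabidopsis, galactinol synthase and ascorbate peroxidase. Arabidopsis HsfA6b lies downstream of abscisic acid (ABA), through bZIP factors that bind ABA-responsive elements, and HsfA3 lies downstream of DREB2 factors in drought.

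The A-6b-like gene lies on the plus strand of scaffold 3828, bases 27629 to 29293, in the authors' assembly. Its coding length is 1116 bases, which leaves 549 non-coding bases within the model, and no other gene with a read is annotated on that scaffold. The match to soybean A-6b-like has an e-value of 4.71e-75. The heat shock factor gene lies on the plus strand of scaffold 826, bases 403738 to 404992, with a coding length of 1152 bases and 103 non-coding bases within the model. Its nearest annotated neighbours with a read are 27749 bases to the left and 2119 bases to the right. Neither model overlaps another. The best match of Bhs826_024V1.1 has an e-value of 0. A second gene, Bhs1054_009V1.1, has a best match of the same description, with an e-value of 2.55e-63. This second gene was nearly silent, with 15, 27 and 48 reads summed over the hydrated, 70% and 10% RWC libraries.

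The A-6b-like gene was highest in leaves at 70% RWC and lowest in leaves at 10% RWC. The hydrated libraries held 1996, 1467 and 1464 reads, which are 255, 208 and 215 CPM (reads relative to library size, with libraries scaled by the TMM method). At 70% RWC the libraries held 4811, 4371 and 3981 reads, or 669, 639.7 and 586 CPM. At 10% RWC they held 681, 497 and 525 reads, or 90.7, 69.7 and 70.9 CPM. The 3 states did not overlap, and replicate 1 was the highest of its state in each of them. Mean levels were 226 ± 25.2, 632 ± 42.0 and 77.1 ± 11.8 CPM (SD, n = 3 libraries per state). Its level was thus 2.79-fold higher at 70% RWC than in hydrated leaves, a log2 difference of 1.48 ± 0.10 (SE). At 10% RWC it was 2.93-fold lower than in hydrated leaves (log2 difference -1.55 ± 0.10) and 8.19-fold lower than at 70% RWC (-3.03 ± 0.11). These are bulk leaf libraries, in which fewer cells of a type and less RNA per cell cannot be told apart.

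The heat shock factor gene Bhs826_024V1.1 was low in hydrated leaves and high in both dried states. The hydrated libraries held 154, 131 and 104 reads, or 19.7, 18.6 and 15.3 CPM. At 70% RWC there were 2425, 2436 and 2320 reads, or 337, 356.5 and 342 CPM. At 10% RWC there were 1486, 1508 and 1484 reads, or 198, 211.5 and 200.5 CPM. Again the states did not overlap, and the lowest library at 70% RWC stood well above the highest at 10% RWC. Mean levels were 17.9 ± 2.28, 345 ± 10.1 and 203 ± 7.22 CPM (SD, n = 3). That is 19.3-fold higher at 70% RWC than in hydrated leaves (log2 difference 4.27 ± 0.08, SE) and 11.3-fold higher at 10% RWC (3.50 ± 0.08). Between the dried states the level at 10% RWC was 1.70-fold lower (-0.76 ± 0.07). Ratios formed within each replicate number lay between 4.10 and 4.48 on the log2 scale for 70% RWC against hydrated leaves and between 3.33 and 3.71 for 10% RWC.

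**Figure D1:**
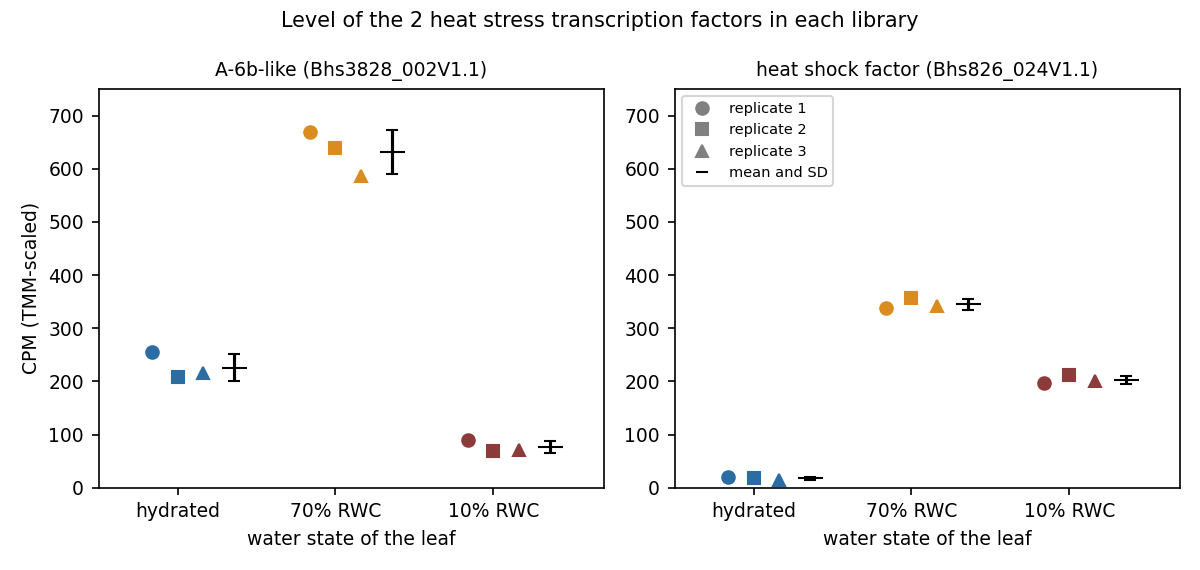
Level of each gene in every library, in TMM-scaled CPM (y axis, from 0), by water state (x axis). Symbols mark the replicate number and the black bar the mean and SD of 3 libraries. The A-6b-like gene lies between 586 and 669 CPM at 70% RWC and below 91 CPM at 10% RWC, whereas the heat shock factor gene is at 198 CPM or more in every dried library.

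Most genes of this series differed between the states. Of 14585 genes tested with edgeR, 70.5% were called (adjusted p under 0.05) between 70% RWC and hydrated leaves, 83.9% between 10% RWC and hydrated leaves, and 76.8% between the dried states. The order 70% RWC above hydrated above 10% RWC, that of the A-6b-like gene, was found with all 3 differences called in 776 tested genes (5.32%). The order 70% RWC above 10% RWC above hydrated, that of the heat shock factor gene, was found in 871 (5.97%). In size of change, 302 genes had a larger log2 increase than the heat shock factor gene at 70% RWC and 508 at 10% RWC. For the A-6b-like gene, 1439 genes had a larger increase at 70% RWC, and 944 had a larger decrease from 70% to 10% RWC. The comparisons share libraries (the hydrated ones in both dried-against-hydrated comparisons), so their values for 1 gene are not independent.

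Reads covered most of both coding regions in the dried states. The percent of gene length with reads, a deposited value, was 99.2% to 99.9% for the A-6b-like gene in hydrated and 70% RWC libraries, and 93.7%, 94.1% and 98.1% at 10% RWC. For the heat shock factor gene it was 86.3%, 79.9% and 76.0% in the hydrated libraries, where reads were few, and at least 96.0% in every dried library.

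Levels can be compared between the genes per kilobase of coding length. In RPKM, which is CPM divided by the coding length in kilobases, the A-6b-like gene stood at 203 ± 22.6, 566 ± 37.65 and 69.1 ± 10.6 in hydrated, 70% RWC and 10% RWC leaves (SD, n = 3). The heat shock factor gene stood at 15.5 ± 1.98, 299.6 ± 8.74 and 176 ± 6.27 RPKM. The within-library ratio of A-6b-like to heat shock factor RPKM was 13.4, 11.6 and 14.5 in hydrated leaves. It was 2.05, 1.85 and 1.77 at 70% RWC, and 0.473, 0.340 and 0.365 at 10% RWC. The A-6b-like transcript was therefore the more abundant of the pair in all 6 hydrated and 70% RWC libraries and the less abundant in all 3 libraries at 10% RWC. Among all tested genes, 95.7%, 98.5% and 82.2% had a lower mean RPKM than the A-6b-like gene in hydrated, 70% and 10% RWC leaves. The corresponding shares for the heat shock factor gene were 48.3%, 96.9% and 94.3%.

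Within the family, the pair made up 35.5% ± 2.83 of the summed RPKM of 22 Hsf genes in hydrated leaves, 60.5% ± 0.919 at 70% RWC and 25.4% ± 0.405 at 10% RWC (SD, n = 3). The A-6b-like gene alone held 33.0% ± 2.65, 39.5% ± 1.36 and 7.14% ± 0.919 of it. The heat shock factor gene held 2.53% ± 0.332, 20.9% ± 0.934 and 18.3% ± 0.9497. Summed RPKM of the 20 other Hsf genes was 395 ± 14.9 in hydrated leaves, 565 ± 13.4 at 70% RWC and 720.1 ± 15.8 at 10% RWC. The family sum with the pair was 613 ± 23.7, 1431 ± 46.5 and 966 ± 22.1 RPKM, so the family total was highest at 70% RWC with the pair and at 10% RWC without it.

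**Figure D2:**
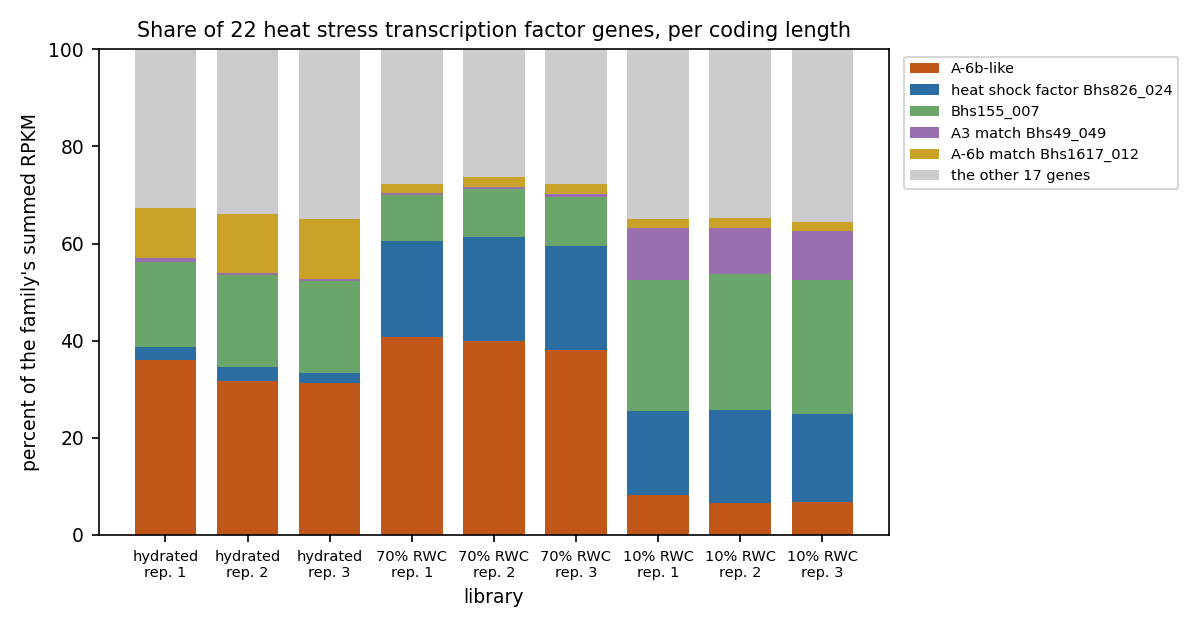
Share of each library's summed Hsf RPKM (y axis, percent; 22 genes) taken by the A-6b-like gene, the heat shock factor gene and 3 other named genes, with the rest in grey; each bar is 1 library. The pair takes 60.5% on average at 70% RWC, and at 10% RWC Bhs155_007V1.1 holds the widest single band, with a mean of 27.5%.

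By mean RPKM the A-6b-like gene ranked first in the family in hydrated leaves and at 70% RWC, with no overlap between its libraries and those of the next gene. At 10% RWC it ranked 5 of 22, and its libraries (62.5 to 81.3 RPKM) overlapped both neighbours in the order, the A-8-like match Bhs13381_002V1.1 (70.4 to 79.8 RPKM) and the A-4b match Bhs3_028V1.1 (60.2 to 64.4 RPKM). The heat shock factor gene moved from rank 11 in hydrated leaves to rank 2 in both dried states. Its libraries there overlapped those of no neighbour in the order. At 10% RWC the first rank belonged to Bhs155_007V1.1, a general "heat shock factor protein" match, at 265 ± 3.28 RPKM.

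**Figure D3:**
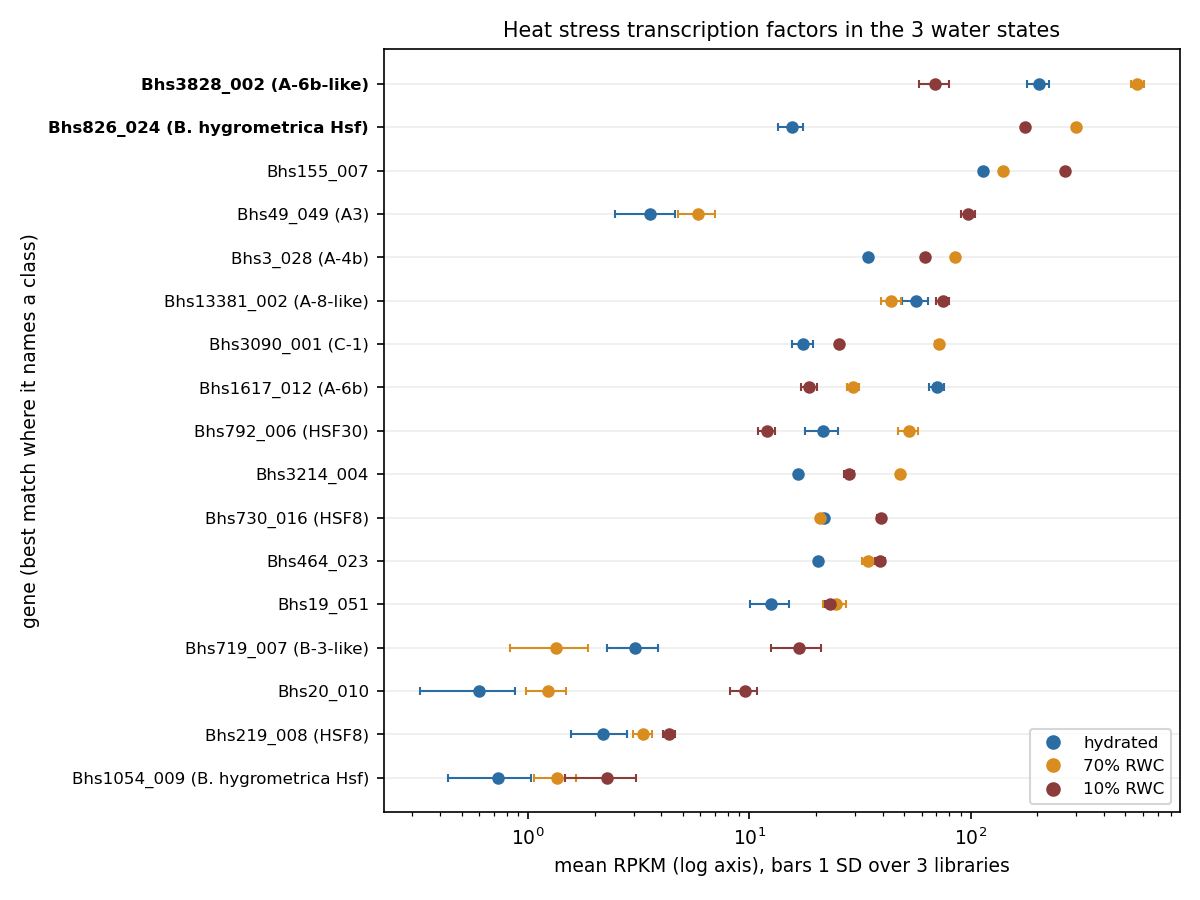
Mean RPKM (x axis, log scale) of 17 of the 18 tested Hsf genes in the 3 water states, with bars of 1 SD over 3 libraries and genes ordered by their highest state; Bhs3782_003V1.1, with no read in some libraries, is not drawn. The A-6b-like gene stands at 566 RPKM at 70% RWC, the highest point drawn, and the heat shock factor gene moves from 15.5 to 299.6 RPKM between hydrated leaves and 70% RWC.

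Of the 20 other Hsf genes, 16 had enough reads to be tested, and more of them were higher than lower in the dried states. At 70% RWC against hydrated leaves, 10 of 16 rose and 3 fell, beside 34.6% higher and 35.9% lower among all tested genes. Across the alternatives, 9 to 10 rose and 2 to 3 fell. The median log2 difference of the 16 was 0.82, against -0.01 over all tested genes. At 10% RWC against hydrated leaves, 14 of 16 rose and 2 fell (all genes 42.4% and 41.5%), with a median of 0.92 against 0.01. Between 70% and 10% RWC, 6 rose and 6 fell (all genes 37.1% and 39.6%). That split depended on the setting: 9 rose and 5 fell with library totals, and 8 rose and 5 fell with replicates 2 and 3 alone. The 4 untested genes, among them the matches to A-9 (Bhs4625_008V1.1), a seed desiccation factor in Arabidopsis, and to A-2-like (Bhs4464_004V1.1), had 11 or fewer reads summed over any state.

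The order seen for the heat shock factor gene, with 70% RWC highest and hydrated lowest, was found in 5.97% of all tested genes and in 4 of the 16. They include the class A match to A-4b, Bhs3_028V1.1, which rose from 43.6 ± 0.202 CPM to 107 ± 0.667 at 70% RWC (log2 difference 1.30, edgeR adjusted p = 9.21e-12) and stood at 78.9 ± 2.71 CPM at 10% RWC. The class C match, Bhs3090_001V1.1, rose from 18.3 ± 1.97 to 75.4 ± 2.76 CPM (2.04, edgeR adjusted p = 1.36e-12) and fell back to 26.7 ± 0.428 CPM. The other two were Bhs3214_004V1.1, at 22.4, 64.8 and 38.1 CPM, and the sparsely read Bhs3782_003V1.1, with 1, 53 and 34 reads per state. For Bhs3782_003V1.1 the difference between the dried states (edgeR adjusted p = 0.0466) was lost in 11 of 17 alternatives, with adjusted p up to 0.35 when replicates 2 and 3 were used alone and 0.131 without replicate 1 of 70% RWC.

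The order of the A-6b-like gene was shared by 1 of the 16, near the 5.32% of all tested genes with that order. This gene was Bhs792_006V1.1, a match to HSF30, the name of tomato HsfA2, a factor that sustains heat responses. Its libraries held 28.5, 20.3 and 25 CPM in hydrated leaves, 67.2, 55.9 and 56.9 at 70% RWC, and 14.8, 14.0 and 12.4 at 10% RWC. It rose at 70% RWC (log2 difference 1.28, edgeR adjusted p = 2.26e-08) and fell below hydrated leaves at 10% RWC (-0.84, adjusted p = 1.92e-05). Its libraries did not overlap between states.

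The second A-6b match went the other way from the first at 70% RWC, but both were below hydrated leaves at 10% RWC. Bhs1617_012V1.1 held 131, 142.5 and 154 CPM in hydrated leaves, 56.2, 63.1 and 59.4 at 70% RWC, and 39.1, 39.7 and 34.2 at 10% RWC. It fell at 70% RWC (log2 difference -1.26, edgeR adjusted p = 1.74e-10) and further at 10% RWC (-1.92 against hydrated leaves, adjusted p = 4.75e-13). No other tested Hsf gene was highest in hydrated leaves. Its model is 2025 coding bases long and also carries a KEGG match to a protein phosphatase 2C, so its name is uncertain.

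Several other family members were highest at 10% RWC. The A3 match Bhs49_049V1.1 stood at 6.26, 4.54 and 3.38 CPM in hydrated libraries, 7.93, 6.29 and 9.28 at 70% RWC, and 140.0, 121 and 129 at 10% RWC. It rose by 4.05 on the log2 scale from 70% to 10% RWC (edgeR adjusted p = 4.73e-14), across the step at which the A-6b-like gene was 8.19-fold lower. Bhs155_007V1.1 went from 105 ± 3.18 through 130.3 ± 1.59 to 247 ± 3.05 CPM. The B-3-like match Bhs719_007V1.1, of a class in which many factors repress, rose from 0.962 ± 0.370 CPM at 70% RWC to 12.02 ± 3.08 at 10% RWC (3.62, adjusted p = 6.36e-09). Its lower level at 70% RWC than in hydrated leaves (-1.19, edgeR adjusted p = 0.0178) was lost without replicate 1 of hydrated leaves (adjusted p = 0.0884) or replicate 2 of 70% RWC (0.0798). Of the 16 genes, 6 had their highest mean at 70% RWC, like both members of the pair, 9 at 10% RWC and 1 in hydrated leaves. These counts go by the mean alone, and 6 of the 16 did not have all 3 comparisons called. The matching shares over all tested genes were not computed, so the counts do not set the family apart.

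Genes placed upstream of Hsfs in Arabidopsis were examined next. Of 4 genes described as ABA-responsive element binding factors, 3 (75%) rose in both dried states against hydrated leaves. Among all tested genes, 34.6% were higher at 70% RWC and 42.4% at 10% RWC. The remaining gene, Bhs3297_001V1.1, at 2.90, 3.32 and 3.04 CPM, was not called. The AREB-like gene Bhs478_010V1.1 was near silent in hydrated libraries at 1.28, 1.14 and 0.735 CPM. It reached 126, 136 and 140.4 CPM at 70% RWC and 80.8, 86.9 and 89.8 at 10% RWC. Its log2 rises were 6.96 and 6.32 (edgeR adjusted p = 1.94e-17 and 6.06e-17), and it was lower at 10% than at 70% RWC (-0.64, adjusted p = 3.47e-07), the same order as the heat shock factor gene. Bhs11_083V1.1, a match to ABA-responsive element-binding protein 2, went from 3.62 ± 0.367 to 59.8 ± 4.74 and back to 10.1 ± 0.609 CPM. The ABI5-like Bhs1259_002V1.1 rose at each step, from 15.3 ± 0.429 to 82.6 ± 8.84 and 147 ± 13.2 CPM. At 10% RWC these 3 factors stood above their hydrated levels, and the A-6b-like gene stood 2.93-fold below its own. Whether any of them acts on the A-6b-like gene was not tested.

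Of 5 genes listed by description as possible Hsf regulators, 3 were tested. The multiprotein bridging factor 1b match Bhs106_070V1.1, of a family of coactivators, rose from 64.7 CPM to 96.6 at 70% and 111.5 at 10% RWC. A second gene with that match, Bhs146_011V1.1, stood at 74.8, 66.2 and 48.2 CPM, falling at 10% RWC (log2 difference -0.63, edgeR adjusted p = 3.4e-07). The first gene's step from 70% to 10% RWC was lost without replicate 1 of 70% RWC (adjusted p = 0.381), and the second gene's step to 70% RWC without any 1 of the 6 libraries compared (adjusted p from 0.0547 to 0.135). The DREB2 match Bhs11_068V1.1 held 22.9, 44.6 and 45.4 CPM in hydrated leaves, 17.1, 35.1 and 34.5 at 70% RWC, and 38.6, 82.3 and 77.3 at 10% RWC. Replicate 1 was the lowest in each state, where the A-6b-like gene had its highest. The DREB2 match was higher at 10% than at 70% RWC (1.20, edgeR adjusted p = 0.0407), a call lost in 10 of 17 alternatives, with adjusted p up to 0.156 without replicate 1 of 70% RWC and 0.115 and 0.105 without replicate 2 or 3 of 10% RWC. With the replicate number as a block, the same difference was 1.19 (edgeR adjusted p = 3.32e-20), and the differences from hydrated leaves, not called without the block, were -0.38 at 70% RWC (adjusted p = 5.84e-05) and 0.81 at 10% RWC (6e-15).

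HSP70 and HSP90 genes were listed by description, without regard to the cell compartment of the protein. Whether their levels bear on the activity of any Hsf was not tested. Most HSP70 genes fell at 10% RWC. For HSP90 genes the share that fell was near that of all tested genes, and the share that rose was below it. Of 10 tested genes described as HSP90 family, 0 rose and 4 fell at 70% RWC against hydrated leaves (0% and 40%, beside 34.6% and 35.9% of all tested genes). At 10% RWC 2 rose and 5 fell (20% and 50%, beside 42.4% and 41.5%). Median log2 differences of these HSP90 genes were -0.49 at 70% RWC and -0.32 at 10% RWC. The most abundant HSP90 gene, Bhs7_048V1.1, went from 1374, 1428 and 1448 CPM in hydrated libraries to 566, 565 and 531 at 70% RWC and to 24.1, 18.5 and 18.1 at 10% RWC. That was a fall of 6.13 on the log2 scale at 10% RWC (edgeR adjusted p = 1.24e-18). Of 19 tested HSP70 family genes, 5 rose and 7 fell at 70% RWC (26.3% and 36.8%, beside 34.6% and 35.9% of all tested genes). At 10% RWC 2 rose and 14 fell (10.5% and 73.7%, beside 42.4% and 41.5%). Their median log2 differences were -0.12 and -1.36. Between the dried states 3 HSP70 genes rose and 13 fell (15.8% and 68.4%, beside 37.1% and 39.6% of all tested genes). The luminal-binding protein match Bhs78_025V1.1, the HSP70 of the endoplasmic reticulum, went from 1216 ± 126 to 564 ± 12.4 and 62.4 ± 3.94 CPM. Descriptions brought a co-chaperone (Bhs222_052V1.1) and an HSP70-binding protein (Bhs11849_001V1.1) into these lists.

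Other chaperones of families with known Hsf targets were also listed by description. Whether any Hsf acts on these genes in this plant was not tested. All 4 HSP100/ClpB genes rose at 70% RWC (beside 34.6% of all tested genes), where both members of the pair were highest. At 10% RWC 3 of the 4 rose, beside 42.4% of all tested genes. The ClpB-like gene Bhs1515_001V1.1 had the order of the heat shock factor gene, at 66.8, 68.8 and 63.1 CPM in hydrated leaves, 178, 197 and 204 at 70% RWC, and 96.3, 99.8 and 108 at 10% RWC (1.54 at 70% RWC, edgeR adjusted p = 2.7e-12). Bhs2167_014V1.1, a mitochondrial ClpB4 match, rose at each step, from 71.5 to 157 and 220.4 CPM. Of 8 small heat shock protein genes, 2 rose and 4 fell at 70% RWC, and 3 rose and 4 fell at 10% RWC, with 2 or 3 rising across the alternatives. The shares at 70% RWC were 25% higher and 50% lower, beside 34.6% and 35.9% of all tested genes. At 10% RWC they were 37.5% and 50%, beside 42.4% and 41.5%, so the counts were near the background there. The sizes were not: median log2 differences were -0.65 and -1.08, against -0.01 and 0.01 over all tested genes. At 10% RWC, 4 genes fell and 2 rose at least 2-fold. The summed level of the 8 genes was 601 ± 16.9, 370 ± 3.91 and 184 ± 10.3 CPM (SD, n = 3). The class II match Bhs190_034V1.1 rose from 14.4 ± 1.26 to 78.8 ± 6.22 CPM at 70% RWC (2.45, edgeR adjusted p = 8.58e-13), and stood at 16.1 ± 1.93 CPM at 10% RWC. The more abundant HSP18.1B match Bhs109_076V1.1 fell from 244 ± 8.70 to 86.9 ± 11.3 and 15.8 ± 2.57 CPM.

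Of 37 tested HSP40/DnaJ genes, co-chaperones of HSP70, 15 rose and 12 fell at 70% RWC, and 15 rose and 15 fell at 10% RWC. These shares (40.5% higher and 32.4% lower, then 40.5% each way) were near the 34.6% and 35.9%, and the 42.4% and 41.5%, of all tested genes. Among 6 genes for galactinol synthase and ascorbate peroxidase, 1 rose and 4 fell at 70% RWC, with 2 to 4 falling across the alternatives. The shares were 16.7% and 66.7%, beside 34.6% and 35.9% of all tested genes. All 6 fell at 10% RWC against hydrated leaves, beside 41.5% of all tested genes, but only 1 of them at least 2-fold. Among these 6 calls, 1 was lost without replicate 2 of hydrated leaves (edgeR adjusted p = 0.0593). The same call was lost without replicate 3 of 10% RWC (edgeR adjusted p = 0.0527) and with replicates 2 and 3 summed (0.0926). The galactinol synthase match Bhs13_119V1.1, an enzyme of raffinose sugar synthesis, had the order of the A-6b-like gene. It held 99.9, 106 and 103 CPM in hydrated leaves, 148, 157.5 and 164 at 70% RWC, and 18.4, 21.3 and 19.99 at 10% RWC (0.60 and -2.37 against hydrated leaves, edgeR adjusted p = 3.52e-07 and 1.58e-14).

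**Figure D4:**
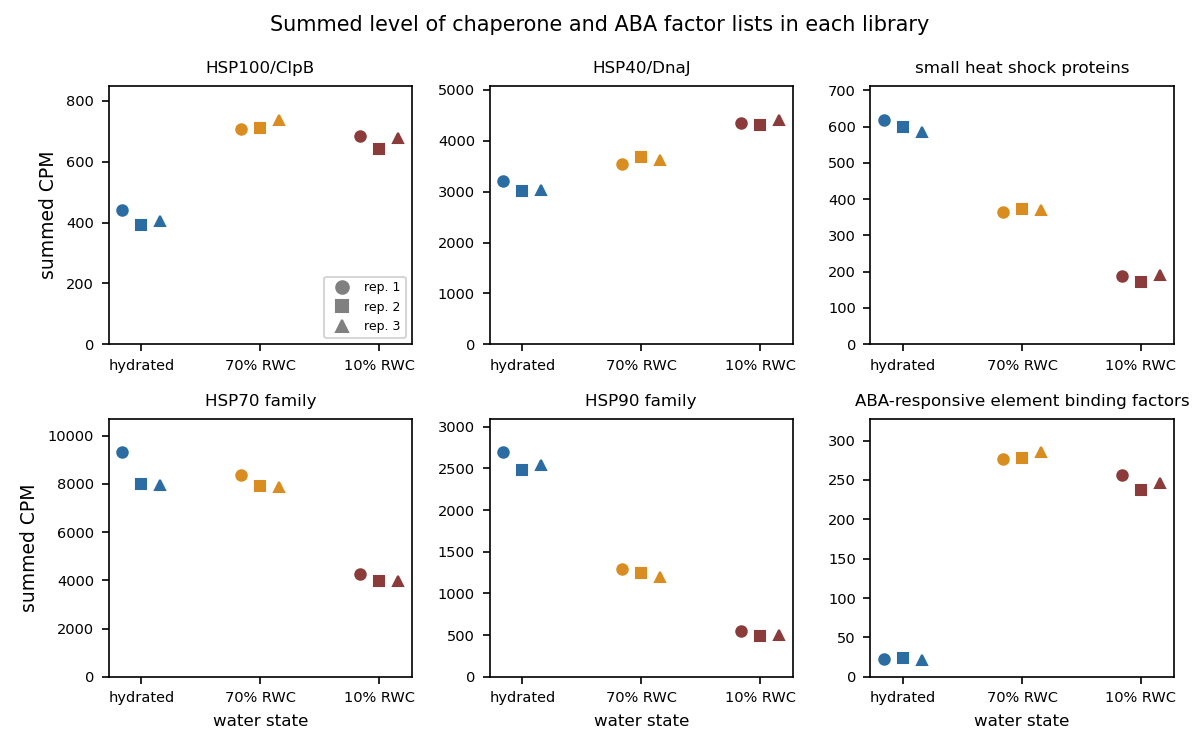
Summed TMM-scaled CPM (y axes, from 0, 1 scale per panel) of 5 chaperone lists and of the ABA-responsive element binding factors in each library, by water state, with symbols for the replicate number. ABA factors sum to between 276 and 285 CPM at 70% RWC against 21.9 to 23.7 in hydrated leaves, and the summed HSP90 genes lie between 2482 and 2693 CPM in hydrated leaves and between 484 and 549.7 at 10% RWC.

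Genes whose profile over the 9 libraries was closest to each member were ranked by the root mean square difference of centred log2 CPM among 5433 genes with an informative description and a mean of at least 10 CPM. All libraries share 3 states, so a high correlation is common: 216 candidates had r above 0.95 with the A-6b-like gene and 351 with the heat shock factor gene. Closest to the A-6b-like gene was Bhs4227_001V1.1, a match to a CTR1-like kinase, the family of the Arabidopsis ethylene repressor, at a distance of 0.057 (r = 0.999, n = 9 libraries). Its level was 13.3 ± 1.84, 36.3 ± 3.24 and 4.21 ± 0.880 CPM. A sucrose phosphatase match, Bhs334_061V1.1, which completes sucrose synthesis, followed at 0.074 (r = 0.999), with 187 ± 31.6, 495 ± 21.3 and 65.3 ± 7.999 CPM. The calcium-binding CML30 match Bhs12_041V1.1 (0.139), a dynein light chain match (0.159), a beta-galactosidase match (0.164) and a glutamate receptor match (0.168) came next.

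Closest to the heat shock factor gene was Bhs11779_003V1.1, an early light inducible protein (ELIP), a thylakoid protein of photoprotection, at 0.102 (r = 0.999). It went from 35.6 ± 2.27 to 648.5 ± 21.6 and 393 ± 15.03 CPM, close to the gene's own 19.3-fold and 11.3-fold differences. The next were Bhs133_008V1.1, a match to common plant regulatory factor 1-like, a bZIP factor, at 0.131 (5.47 ± 1.28, 100.2 ± 1.70 and 67.7 ± 2.99 CPM), and Bhs427_016V1.1, a match to stay-green protein 1 of chlorophyll breakdown, at 0.151 (38.4 ± 0.688, 634 ± 37.2 and 379 ± 36.2 CPM). A plastidic ATP/ADP transporter match (0.22), a multidrug pump match (0.224) and an extended synaptotagmin-2 match (0.225) completed the 6. No gene was among the closest 6 of both members.

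**Figure D5:**
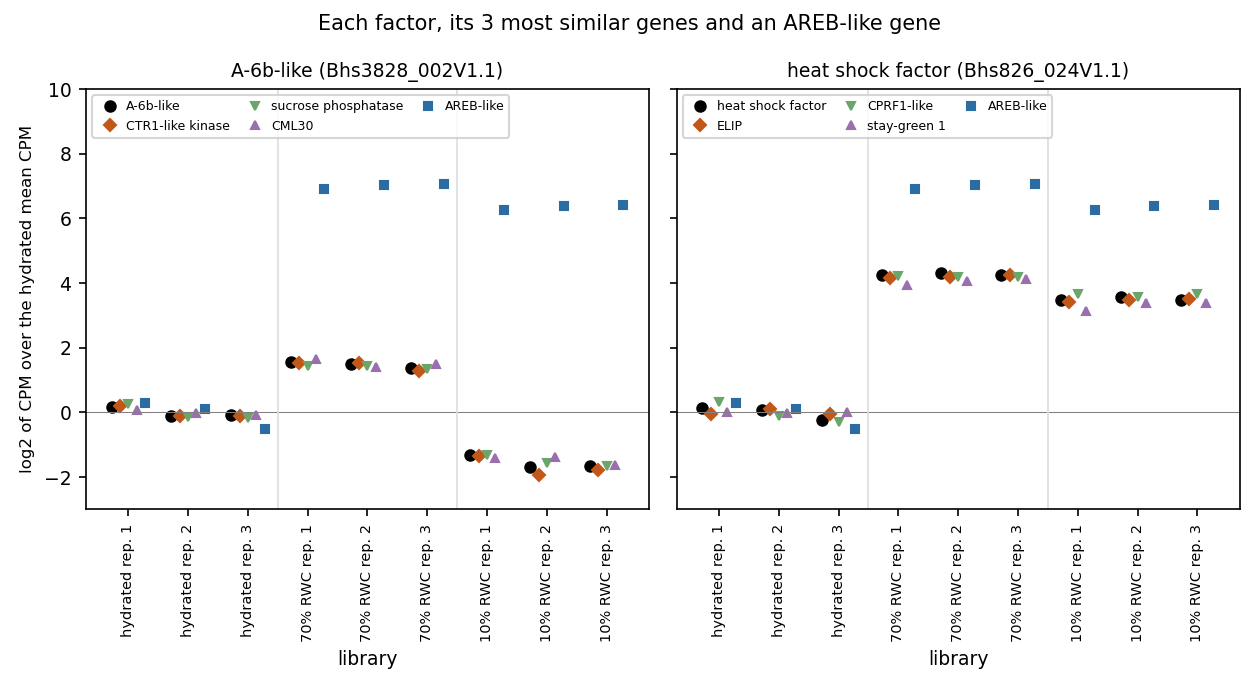
log2 of CPM over the mean hydrated CPM (y axis) in each of 9 libraries (x axis) for the A-6b-like gene (left) and the heat shock factor gene (right), each with its 3 most similar genes and the AREB-like gene Bhs478_010V1.1. The similar genes lie on the member in every library by the way they were chosen; the AREB-like gene has log2 rises of 6.96 and 6.32 in the dried states.

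The tested gene model beside the heat shock factor gene did not share its pattern. Bhs826_025V1.1, a pyrophosphatase/phosphodiesterase match 2119 bases away, fell from 52.3 ± 3.65 CPM in hydrated leaves to 32.1 ± 1.099 at 70% RWC (log2 difference -0.70, edgeR adjusted p = 1.51e-06) and 25.4 ± 1.63 at 10% RWC. Bhs826_021V1.1, a copia-type polyprotein match, stayed under 1 CPM on average in each state and was not tested.

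In the authors' deposited table, which compares each dried state with hydrated leaves, the A-6b-like gene has log2 fold changes of 1.47 at 70% RWC and -1.70 at 10% RWC. The authors' deposited table gives the heat shock factor gene 4.26 and 3.36. Both are computed from the same libraries as the values above.

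The libraries differed little in depth, with 6654601 to 7423965 reads in tested genes. Replicates 2 and 3 of each state were nearly as alike as reads drawn from 1 sample, since the chi-square per gene between them was 1.27 to 1.38, and 4.84 to 8.47 where replicate 1 was 1 of the pair. Leaf markers (Rubisco small subunit, Rubisco activase and chlorophyll a/b-binding proteins) were present in every library, and all 11 fell in each comparison, with a summed level of 61150 to 80200 CPM in hydrated leaves, 6576 to 8541 at 70% RWC and 1590.0 to 1918 at 10% RWC. Guard cell markers (3 of 3 fell at 70% and at 10% RWC) summed to 34.8 to 40.2, 14.4 to 15.9 and 6.66 to 8.51 CPM in the same order. Epidermis markers (6 of 9 fell and 1 rose in both dried states) summed to 726 to 830.0, 128 to 137 and 88.4 to 106 CPM. Vascular markers (2 of 3 fell and 1 rose) summed to 115 to 121, 43.6 to 50.5 and 8.41 to 9.59 CPM, with the xylem serine proteinase match Bhs225_080V1.1 at 0 reads at 10% RWC. Dividing cell markers, among which the search words also brought in unrelated kinases and histones, fell in 28 of 53 genes and rose in 10 at 70% RWC and summed to 1404 to 1499, 1506 to 1636 and 1612 to 1646 CPM. Beside these marker counts, 35.9% of all tested genes were lower and 34.6% higher at 70% RWC than in hydrated leaves. At 10% RWC 41.5% were lower and 42.4% higher than in hydrated leaves, and between the dried states 39.6% were lower. The part of the marker shifts in the levels of the 2 Hsf genes was not tested.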

How the data were processed

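Libraries of 9 leaf samples were analysed. Per the file headers, the authors deposited counts of uniquely aligned reads per gene and, in percent, how much of each gene those reads cover. The authors' deposited table holds group means of normalized reads (a signal), fold changes (a ratio and its log2) and p-values. The aligner, assembly version, counting tool and strandedness are not given in the sources used here. Genes absent from a library's list were set to 0 reads. Gene names are those of the deposited best matches, and unique alignment can undercount near-identical copies, such as some HSP70, HSP90 and Rubisco genes.

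Counts were fitted in R 4.3.3 with edgeR 4.0.16 (TMM, filterByExpr, robust quasi-likelihood fit of 9 libraries, 1 mean per state, Benjamini-Hochberg adjusted p under 0.05 over 14585 genes), after a check on simulated data. CPM is TMM-scaled, RPKM divides it by coding length, log2 CPM has a prior count of 2, and the SE of a log2 difference is its size over the square root of F. The libraries' precision is that of their counts and of 3 replicates. Deviations of same-numbered libraries from their state means correlated at 0.293, 0.103 and 0.102 for replicates 1, 2 and 3 at 70% RWC against hydrated leaves, above the 0.1 taken as pairing, though replicate 3 correlated more with replicate 2 (0.141) and no label states a shared source. At 10% RWC they correlated at 0.274, 0.129 and 0.078 with hydrated leaves and at 0.238, 0.069 and 0.076 with 70% RWC, not all above 0.1. Blocked values are given where they change the call of a named gene. The members, gene lists and tests were chosen with earlier results of these data known. Named genes are both members, the 6 most abundant other Hsfs and the 3 largest called increases and decreases per comparison, up to 3 called genes per list and comparison with a 2-fold change, the 6 most similar genes and the neighbours. Genes named outside this rule, to account for small lists, are Bhs1054_009V1.1, Bhs3782_003V1.1, Bhs4625_008V1.1, Bhs4464_004V1.1, Bhs3297_001V1.1, Bhs106_070V1.1 and Bhs146_011V1.1, chosen after their values were seen. Alternatives were RLE scaling, library totals, DESeq2 1.42.0, no filter, a replicate block, leaving out each library, replicates 2 and 3 alone or summed, fits of 2 states, and narrower search words.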

Additional observations from a re-analysis of the deposited data

How the results depend on the processing

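Of 102 log2 differences of the pair recomputed under an alternative, 100 moved by less than the spread between replicates and none changed sign. The exceptions were both for the heat shock factor gene at 10% against 70% RWC (-0.76), which was -0.69 with library totals and -0.89 without replicate 1 of 70% RWC. Leaving out 1 library gave -0.89 to -0.74 for it. Its level at 70% RWC was 331 CPM by library total instead of 345. Of the 6 genes most like each member, Pearson r instead of the distance kept 2 for the A-6b-like gene and 1 for the heat shock factor gene. Without Bhs1617_012V1.1, an alternative added after seeing the data, 1 other Hsf gene instead of 2 was lower at 10% RWC than in hydrated leaves. Leaving out 1 library gave 9843 to 10495 called genes at 70% RWC against hydrated leaves, 12038 to 12493 at 10% RWC and 10841 to 11482 between the dried states. Library totals shifted the median of all genes at 70% RWC from -0.01 to -0.112. With a replicate block, 10928, 12621 and 11728 genes were called instead of 10284, 12235 and 11194, and log2 differences were 1.49, -1.55 and -3.04 for the A-6b-like gene and 4.27, 3.50 and -0.76 for the heat shock factor gene. Depth limits statements on the 4 untested Hsf genes, and 3 libraries per state from an unstated number of plants limit all of them.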

Other observations

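Other genes of the Hsf family with steady or late profiles complete the account. Bhs730_016V1.1, a match to tomato HSF8, known as HsfA1 and a master regulator of heat responses there, stood at 31.3 ± 1.19 CPM in hydrated leaves and 29.9 ± 0.761 at 70% RWC (SD, n = 3; log2 difference -0.07, edgeR adjusted p = 0.51). It rose to 56.5 ± 2.39 CPM at 10% RWC (0.92 against 70% RWC, edgeR adjusted p = 1.65e-08). Bhs13381_002V1.1, the A-8-like match, went from 64.1 ± 8.67 to 49.6 ± 5.25 and 84.5 ± 5.496 CPM, lowest at 70% RWC where the A-6b-like and heat shock factor genes were highest. Bhs20_010V1.1 had 8, 16 and 131 reads summed over the hydrated, 70% and 10% RWC libraries and rose from 70% to 10% RWC (2.92, edgeR adjusted p = 6.87e-08). Bhs730_016V1.1 lies outside the rule for named genes and was chosen after its values were seen.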
